A study of Mus musculus with 6 samples.

Results

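The genes described here form the DNA replication machinery, the supply of deoxynucleotides and the cyclins and kinases that drive the cell cycle. The rule lists 46 genes by function and has no threshold on measured values, although the list was drawn up with results of these data known. Of the 46, 45 were measured among 19938 genes in all. Each was read through the array probe set that names that gene alone. Ccnb1 had no such probe set and was not analysed here. Transcript levels came from 6 whole-transcript mouse arrays of bulk RNA, 1 for each of 3 established cell lines without stimulation and 1 for each after 4 h of interferon-beta (IFN-β). RAW264.7 cells are macrophages, whereas L929 (from connective tissue) and NIH3T3 (from embryos) are fibroblasts. The labels give no genotype, dose or passage, and no group had a replicate array, so the effect of IFN-β was judged by its spread over the 3 lines. Nothing in the labels says how many cultures an array stands for. The study asked which genes IFN-β regulates.

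Before S phase, the origin recognition complex, Cdc6 and Cdt1 load the ring of Mcm2 to Mcm7 onto DNA, and Cdc45 and the GINS complex turn it into the active helicase. Primase and polymerase alpha start each strand, the clamp loader (replication factor C) places the PCNA ring, and polymerases delta and epsilon copy the DNA. E2F transcription factors, held back by Rb family proteins and released by cyclin-Cdk activity, switch on most of these genes. Type I interferons are known to slow the proliferation of many cell types, beside inducing antiviral genes.

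Some members had an E2F consensus in the promoter, a feature that the list did not use. It is shown because it was more frequent among them than among the interferon-raised genes of the same arrays. RefSeq promoter windows (GRCm38.p6, 250 bases before to 50 after the start, the first listed window of each gene) were matched for 33 members and 15563 measured genes. An E2F consensus, searched on both strands as TTTCCCGC, TTTGGCGC, TTTCGCGC or TTTGCCGC with overlapping matches counted, was present in 14 of the 33 windows (42.4%). It was present in 3.08% of all windows and in 5.07% of the 5224 windows of genes at levels like those of the members. The CCAAT box, searched as CCAAT on both strands, was present in 72.7% of member windows and 38.3% of all windows. The core of the interferon-stimulated response element, searched on both strands as GAAA, any 2 bases and GAAA, was present in 1 member window, that of Orc2 (3.03%), against 3.32% of all windows. Of the 116 windows of genes that IFN-β raised across the lines, 35.3% held this core and 3.45% an E2F consensus. Other motifs searched on both strands had member shares nearer those of all windows. The CHR motif TTTGAA was present in 18.2% of member windows and 15.2% of all windows. The E-box CACGTG was present in 9.09% and 8.4%, and the GAS motif TTCNNNGAA, with N any base, in 6.06% and 7.85%. A match is a run of letters and no evidence of binding. The 10 members with an E2F match before the start are shown from 20 bases before the first match to at most 20 after the last, 5′ to 3′ along the gene's strand, with matches in capitals. The other 4 matched only after it. The stretches of Orc2 and, for comparison, of the interferon-induced gene Ifit1 have the response element core in capitals.
Mcm5 (chr8:75109336-75109387, + strand): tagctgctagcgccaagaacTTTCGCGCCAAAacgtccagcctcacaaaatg
Mcm6 (chr1:128359725-128359835, - strand): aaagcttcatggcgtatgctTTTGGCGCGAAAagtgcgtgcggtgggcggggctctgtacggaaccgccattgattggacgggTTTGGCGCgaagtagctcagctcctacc
Mcm7 (chr5:138172021-138172068, - strand): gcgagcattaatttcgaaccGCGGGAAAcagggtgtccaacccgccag
Orc1 (chr4:108579407-108579453, + strand): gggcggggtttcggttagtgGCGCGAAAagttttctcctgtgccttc
Cdc6 (chr11:98907993-98908040, + strand): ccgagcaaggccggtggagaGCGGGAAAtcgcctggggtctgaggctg
Gins3 (chr8:95633498-95633545, + strand): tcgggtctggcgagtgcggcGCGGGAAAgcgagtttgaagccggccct
Rfc3 (chr5:151651209-151651238, - strand): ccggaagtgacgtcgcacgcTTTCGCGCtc
Pola1 (chrX:93632266-93632313, - strand): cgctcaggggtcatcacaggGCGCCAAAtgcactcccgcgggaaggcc
Cdk1 (chr10:69353016-69353063, - strand): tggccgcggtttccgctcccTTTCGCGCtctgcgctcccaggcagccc
Cdk2 (chr10:128705164-128705211, - strand): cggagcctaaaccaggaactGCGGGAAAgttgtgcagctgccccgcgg
Orc2 (chr1:58505110-58505151, - strand): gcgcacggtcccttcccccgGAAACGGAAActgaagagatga
Ifit1 (chr19:34640765-34640833, + strand): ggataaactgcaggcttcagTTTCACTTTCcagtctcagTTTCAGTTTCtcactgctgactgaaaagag

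The arrays answered to their labels. Of 16 measured interferon-induced genes, all 16 rose across the lines in limma. The 12 macrophage markers had a median log2 level of 10.62 in unstimulated RAW264.7 against 4.13 in NIH3T3 and 4.27 in L929. The 12 fibroblast markers had medians of 4.64, 10.30 and 7.97 in the same order. Stimulated NIH3T3 stood apart in scale. The median log2 change of all genes there was 0.17, against -0.05 for L929 and -0.03 for RAW264.7, while genes in the members' range of levels had one of -0.01. In L929 the fibroblast markers had a median change of -0.41, and its part in the L929 results was not tested. Member changes are therefore also read against the median change of the 500 genes nearest in mean level. Members were well expressed, with mean log2 levels from 6.68 for Cdc6 to 11.38 for Pcna, at or above the 67.7th percentile of all genes.

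The first question was whether 4 h of IFN-β changed these genes in common over the 3 lines. It raised or lowered 0 of the 45 at an adjusted p under 0.05 in limma (cell line as a block, n = 3 lines, Benjamini-Hochberg adjustment over all genes), and 0 at an unadjusted p under 0.05. Over all genes 0.732% were called higher and 0% lower, and 5.48% had an unadjusted p under 0.05. Of genes in the members' range of levels 1.42%, 0% and 5.51% did. The mean change was below 0 for 36 members. Its median was -0.11 over the members, 0.03 over all genes and -0.07 over the 6316 genes in the members' range of levels. Most of those 6316 genes therefore had a mean change below 0 as well. The 95% intervals of the mean change reached 0.38 to either side of it in the median, and each of the 45 held 0. All 45 also lay inside a 2-fold change and 34 inside a 1.5-fold change. The lowest bound, for Cdc6, was a log2 change of -0.85 and the highest, for Myc, 0.68. Limma draws each gene's spread toward that of all genes (7.87 prior against 2 residual degrees of freedom). These intervals are thus too narrow for members whose lines disagreed and wide for members whose lines agreed. The SD of the 3 changes was 0.65 for Rfc4 and 0.019 for Rrm2, with limma standard errors (SE) of 0.23 and 0.16. The 0 members at an unadjusted p under 0.05 and the intervals holding 0 depend on this. Fewer cells in S phase and less RNA per cell cannot be told apart in bulk RNA.

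**Figure D1:**
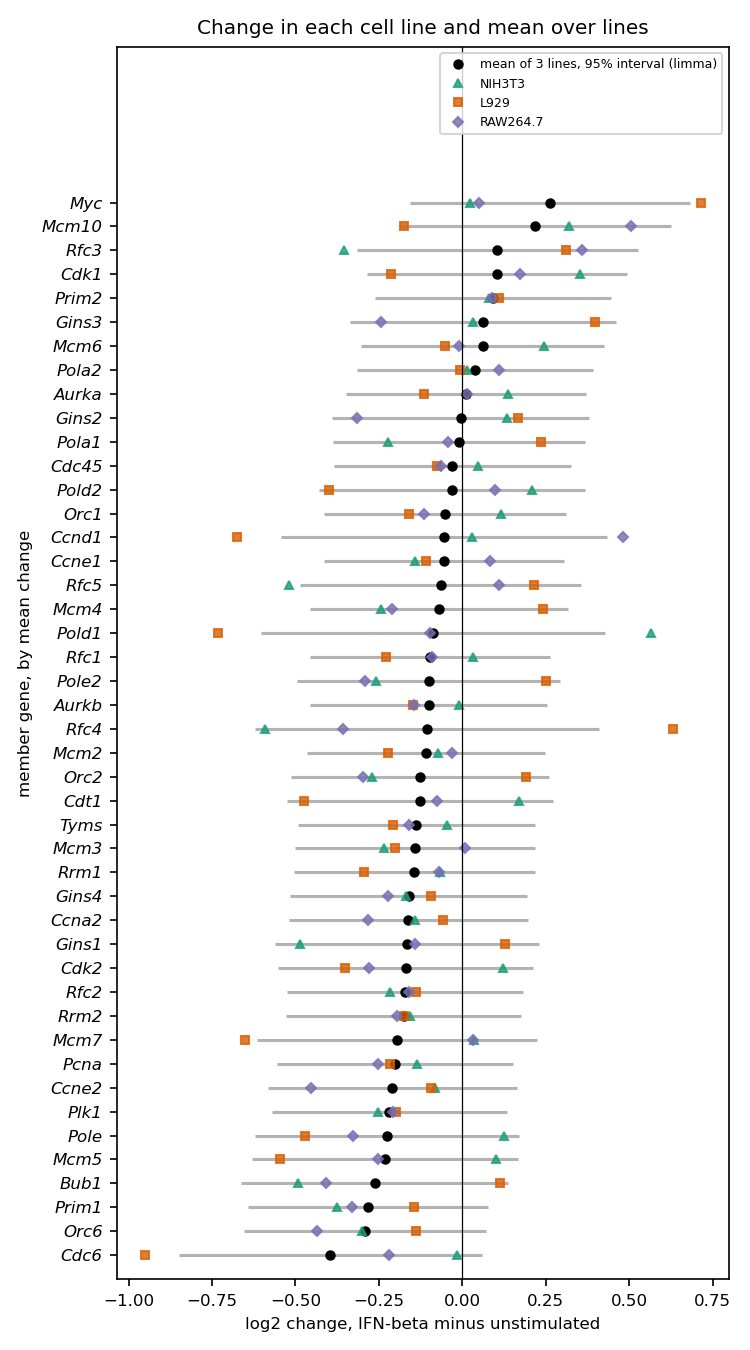
Log2 change with IFN-β of the 45 members in each of the 3 lines (coloured symbols) and the mean over lines (black points) with its 95% interval from limma (grey bars, n = 3 lines), ordered by the mean. Every interval crosses 0, and the means run from -0.40 for Cdc6 to 0.26 for Myc.

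The largest mean decreases were those of Cdc6, Orc6, Prim1, Bub1, Mcm5 and Pole. Cdc6, the loader of the helicase, averaged -0.40 ± 0.20 on the log2 scale (limma SE, limma adjusted p = 0.964). Orc6, an origin recognition subunit, had one of -0.29 ± 0.16, and Prim1, the catalytic subunit of primase, one of -0.28 ± 0.16. Those of the spindle checkpoint kinase gene Bub1, of Mcm5 and of Pole, the catalytic subunit of polymerase epsilon, were -0.26, -0.23 and -0.22. The largest mean increases were 0.26 ± 0.19 for the transcription factor gene Myc and 0.22 ± 0.18 for Mcm10, a factor of helicase activation. Rfc3, Cdk1 and Prim2 followed with 0.11, 0.10 and 0.09, and Gins3 with 0.06, or -0.02 with each array centred on its median. The same adjusted p of 0.964 applied to Myc and Mcm10. Without L929 the mean was 0.04 for Myc, -0.12 for Cdc6, -0.07 for Mcm5, -0.10 for Pole, -0.45 for Bub1, 0.41 for Mcm10 and 0.0019 for Rfc3. Without RAW264.7 it was 0.07 for Mcm10, and without NIH3T3 -0.15 for Bub1, -0.40 for Mcm5 and -0.40 for Pole. None of these 12 passed the test, and their unadjusted limma p-values began at 0.0806, that of Cdc6.

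No test exists for the change in a single line, which rests on 1 pair of arrays. In NIH3T3 1 member was at least 1.5-fold lower with IFN-β and 0 were higher, where 2.14% of all genes were lower and 12.2% higher, and 3.09% and 4.05% of genes at like levels. In L929 4 members were lower and 2 higher (6.37% and 4.47% of all genes, 10.4% and 5.37% at like levels). In RAW264.7 0 and 0 passed that size (1.38% and 2.8% of all genes, 0.95% and 3.51% at like levels). Over the 3 lines 39 of the 45 members stayed under 1.5-fold in each, as did 74.9% of all genes and 78.1% of those in the members' range of levels. The member shares were thus near or below those of genes at like levels. The 6 members past 1.5-fold are described with their complexes.

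**Figure D2:**
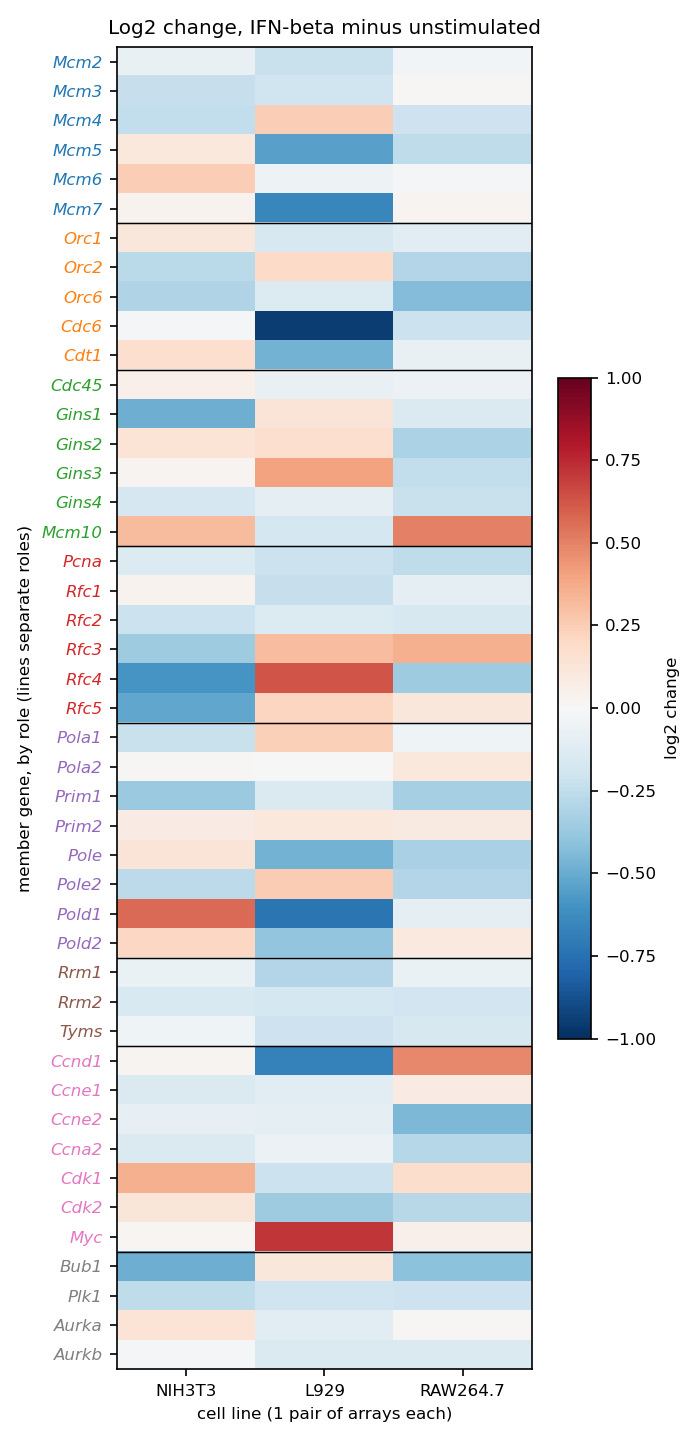
Log2 change with IFN-β (colour, red higher and blue lower) of each member (rows, grouped by role) in each cell line (columns, 1 pair of arrays each). The strongest colours are those of Cdc6, Pold1, Ccnd1 and Mcm7 (lower) and Myc and Rfc4 (higher) in L929.

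Of the MCM ring, the core of the replicative helicase, Mcm7 and Mcm5 had the widest changes, both in L929. Levels are given on the log2 scale as unstimulated then stimulated, and changes or differences (stimulated minus unstimulated) without a line name in the order NIH3T3, L929, RAW264.7. Mcm7 had 9.16 then 9.19 in NIH3T3, 8.87 then 8.21 in L929 and 8.99 then 9.02 in RAW264.7. Stimulated L929 was the only low array, with a change of -0.65. Mcm5 showed the same array low, with 9.0 then 9.1 in NIH3T3, 9.15 then 8.60 in L929 and 9.31 then 9.06 in RAW264.7. Mcm2, Mcm3 and Mcm6 differed by -0.22, -0.20 and -0.05 in L929, where Mcm4 was higher by 0.24. In NIH3T3 Mcm2, Mcm3 and Mcm4 differed by -0.07, -0.23 and -0.24 and Mcm6 by 0.25. Of the 6 genes 5 were lower in L929, 3 in NIH3T3 and 4 in RAW264.7. Of all genes 55.8%, 31.6% and 55% were lower in these lines, in this order, and 65.2%, 52.2% and 58.1% at like levels. Below genes at similar levels were 4 of the 6 in L929, 2 in NIH3T3 and 2 in RAW264.7. In RAW264.7 the changes of the 6 were no larger than -0.25, that of Mcm5, and the median was -0.02.

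Among the licensing genes Cdc6 had the largest single change of any member. Its levels were 6.56 then 6.54 in NIH3T3, 7.03 then 6.08 in L929 and 7.04 then 6.82 in RAW264.7. The L929 change of -0.95 was the main source of its mean, and in NIH3T3 the change was -0.02. Cdt1, which loads the helicase with Cdc6, had changes of 0.17, -0.48 and -0.08. Orc6 was lower on each stimulated array, with 9.01 then 8.71 in NIH3T3, 8.92 then 8.78 in L929 and 8.93 then 8.49 in RAW264.7. Orc2, another origin recognition subunit, was lower by 0.27 in NIH3T3 and 0.30 in RAW264.7 and higher by 0.19 in L929. Orc1, the subunit most tied to the cell cycle, stayed within 0.16 of its unstimulated level. In RAW264.7 all 5 licensing genes were lower, with a median change of -0.22, and all 5 lay below genes at similar levels. Of all genes 55% were lower in RAW264.7, and 58.1% at like levels.

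The helicase activators did not share a direction. All 4 GINS genes were lower in RAW264.7, Gins1 by 0.14, Gins2 by 0.31, Gins3 by 0.24 and Gins4 by 0.22. There 55% of all genes and 58.1% of genes at like levels were lower. Gins4 was lower by 0.17 in NIH3T3 and 0.09 in L929 as well. In L929 Gins1, Gins2 and Gins3 were higher, by 0.13, 0.17 and 0.40, and none of the 6 genes of this group lay below genes at similar levels. Gins1 in NIH3T3 had a level of 7.07 unstimulated and 6.59 stimulated, a change of -0.48. Mcm10 had 7.34 then 7.66 in NIH3T3, 7.64 then 7.47 in L929 and 7.97 then 8.48 in RAW264.7. Its increase of 0.51 was the largest of any member in RAW264.7. Cdc45 was flat, with changes of 0.05, -0.07 and -0.06.

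Of the clamp loader genes, Rfc3, Rfc4 and Rfc5 were lower in NIH3T3 and higher in L929, and Rfc1 and Rfc2 were not. Rfc4 had levels of 9.17 then 8.58 in NIH3T3, 9.04 then 9.67 in L929 and 10.35 then 9.99 in RAW264.7. It was the 1 member at least 1.5-fold lower in NIH3T3, with a change of -0.59, and was higher by 0.63 in L929. Rfc5 differed by -0.52 and 0.22 in these lines and Rfc3 by -0.35 and 0.31, while Rfc2 and the large subunit Rfc1 differed by -0.22 and -0.14, and by 0.03 and -0.23. In RAW264.7 Rfc3 was higher by 0.36 and Rfc4 lower by 0.36. The clamp gene Pcna was lower on each stimulated array, with changes of -0.14, -0.22 and -0.25. A second probe set of Pcna gave -0.18, -0.20 and -0.25, so both followed each other, although Pcna has processed copies in the genome whose signal cannot be told apart here.

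Of the polymerase genes, Pold1, the catalytic subunit of polymerase delta, differed most between lines. Its levels were 6.85 then 7.42 in NIH3T3, 7.25 then 6.51 in L929 and 7.35 then 7.26 in RAW264.7. The fibroblast lines thus had changes of 0.56 and -0.73, with no test of that difference. Its partner Pold2 went the same ways, with 0.21 and -0.40. Pole differed by 0.13, -0.47 and -0.33, and Pole2, the second subunit of polymerase epsilon, by -0.26, 0.25 and -0.29. Prim1 was lower on each stimulated array, with 8.85 then 8.48 in NIH3T3, 9.59 then 9.44 in L929 and 9.56 then 9.23 in RAW264.7. Prim2, the large primase subunit, was slightly higher on each, by 0.08, 0.11 and 0.09. Pola1 and Pola2, of polymerase alpha, stayed within 0.24 of their unstimulated levels.

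The genes of nucleotide supply were lower on each stimulated array, by small amounts. Rrm1, the large subunit of ribonucleotide reductase, had changes of -0.07, -0.30 and -0.07. The small subunit Rrm2 had one of the most even changes, with -0.16, -0.17 and -0.19, an SD of 0.019. Its mean was -0.17 ± 0.16, where the limma SE is drawn toward the spread of all genes. Tyms, thymidylate synthase, differed by -0.05, -0.21 and -0.16. Relative to genes at similar levels Rrm2 was lower in all 3 lines, and Rrm1 and Tyms were not lower in NIH3T3.

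Among the cyclin, Cdk and Myc genes, Ccnd1 and Myc had the widest changes. Ccnd1, the cyclin of early G1, had levels of 9.6 then 9.63 in NIH3T3, 11.26 then 10.58 in L929 and 10.45 then 10.93 in RAW264.7. It was lower by 0.68 in L929 and higher by 0.48 in RAW264.7. Myc had 9.14 then 9.17 in NIH3T3, 9.25 then 9.96 in L929 and 4.83 then 4.88 in RAW264.7. Its change of 0.71 in L929 was the largest increase of any member in any line, and both RAW264.7 arrays had a level below the median gene of the array. Ccne2, a cyclin of the entry into S phase, was lower by 0.45 in RAW264.7, from 8.14 to 7.69, and by less than 0.10 in the fibroblast lines, while Ccne1 stayed within 0.14. Ccna2, the S phase cyclin, differed by -0.14, -0.06 and -0.28. Cdk1, the mitotic kinase, differed by 0.35, -0.21 and 0.17, and Cdk2 by 0.12, -0.35 and -0.28.

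Among the mitotic kinase genes Bub1 had the widest changes. Bub1 had levels of 9.42 then 8.92 in NIH3T3, 9.53 then 9.65 in L929 and 10.48 then 10.07 in RAW264.7, so that NIH3T3 and RAW264.7 were lower by 0.49 and 0.41 and L929 was not. Plk1 was lower by 0.25, 0.20 and 0.21, nearly alike in the 3 lines. Aurkb differed by -0.01, -0.15 and -0.14, and Aurka by 0.14, -0.12 and 0.01.

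Members lower in all 3 lines numbered 14 of 45 (31.1%), against 11.4% of all genes and 20.5% of genes at like levels. They were Mcm2, Orc6, Cdc6, Gins4, Pcna, Rfc2, Prim1, Rrm1, Rrm2, Tyms, Ccne2, Ccna2, Plk1 and Aurkb. Prim2 and Myc were higher in all 3 (4.44% of members, 15.5% of all genes and 7.98% at like levels). The count lower in all 3 lines moved with the scale of the arrays. It was 21 after median centring of the arrays and 10 after quantile normalization, with no share of all genes given for either. Read against genes at similar levels, 6 members were below in all 3 lines (Orc6, Cdc6, Rfc2, Prim1, Rrm2 and Plk1), which is 13.3% against 12.9% of all genes and 12.5% at like levels. Above them in all 3 were 5 (Mcm6, Mcm10, Pola2, Prim2 and Myc), or 11.1% against 13.3% and 13.1%.

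By line, members below genes at similar levels numbered 20 (NIH3T3), 24 (L929) and 30 (RAW264.7), which is 44.4%, 53.3% and 66.7% of members. The same measure gave 50.2%, 50.1% and 50% of all genes, and 50.1%, 50.1% and 50% at like levels. The median difference from those genes was -0.11 for RAW264.7, -0.01 for L929 and 0.02 for NIH3T3. Without that reading 25 members (55.6%) were lower in NIH3T3, against 31.6% of all genes and 52.2% at like levels. In L929 32 (71.1%) were, against 55.8% and 65.2%, and in RAW264.7 32 (71.1%), against 55% and 58.1%. With each array centred on its median the NIH3T3 count was 42, and after quantile normalization it was 22. No share of all genes is given for either scaling. The median change of all genes in NIH3T3 was then -0.10 and -0.01. In RAW264.7 the lowest members were Ccne2, Orc6, Bub1, Rfc4 and Prim1 and the highest Mcm10, Ccnd1, Rfc3, Cdk1 and Rfc5, with changes from -0.45 to 0.51.

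The other genes of the pathway were in 4 lists chosen by function. Of 33 other replication genes 0 rose and 0 fell across the lines in limma, also at an unadjusted p under 0.05, and of 28 mitosis genes again 0 and 0. In RAW264.7 26 of the 33 and 24 of the 28 lay below genes at similar levels, with median changes of -0.20 and -0.20 against -0.03 over all genes. In NIH3T3 18 and 16 of them lay below, and in L929 17 and 12. Of the other cyclins and kinases 16 of 21 lay below in RAW264.7, and of the other nucleotide supply genes 9 of 16. In NIH3T3 these were 11 and 3, and in L929 11 and 12. Gmnn, the inhibitor of Cdt1, differed by -0.88 in RAW264.7, -0.78 in L929 and 0.26 in NIH3T3, and the single-strand binding protein gene Rpa1 by -0.21, -0.45 and -0.41. Among mitosis genes Anln differed by -0.48, -0.34 and -0.21 in the same order and Espl1, the separase, by -0.29, -0.96 and 0.19. The largest mean increases were 0.25 for Mcm9 and 0.15 for Mcmbp, and 0.29 for the kinesin gene Cenpe and 0.05 for Pttg1.

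Of 21 other cyclins and kinases 0 rose and 0 fell in limma. At an unadjusted p under 0.05 0 were higher and 2 lower, where 5.48% of all genes passed in either direction. The checkpoint kinase gene Chek2 averaged -0.52 ± 0.16 on the log2 scale (limma SE, limma adjusted p = 0.507). Fbxo5, an inhibitor of the anaphase-promoting complex, averaged -0.49 ± 0.16 (limma adjusted p = 0.586). Both were lower in all 3 lines. Ccnd2 had a mean of 0.37 and Ccnd3 one of 0.26. Of 16 other nucleotide supply genes 1 rose and 0 fell. The one was Samhd1, the enzyme that degrades deoxynucleotides, which rose by 1.27 ± 0.17 (limma adjusted p = 0.00485). Its levels were 8.72 then 9.76 in NIH3T3, 9.22 then 10.68 in L929 and 9.85 then 11.15 in RAW264.7, with each stimulated array higher. The purine synthesis gene Ppat and the pyrimidine synthesis gene Cad had mean changes of -0.27 and -0.26 and Dck, a deoxynucleoside kinase, one of 0.44, with a change of 1.22 in RAW264.7.

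**Figure D3:**
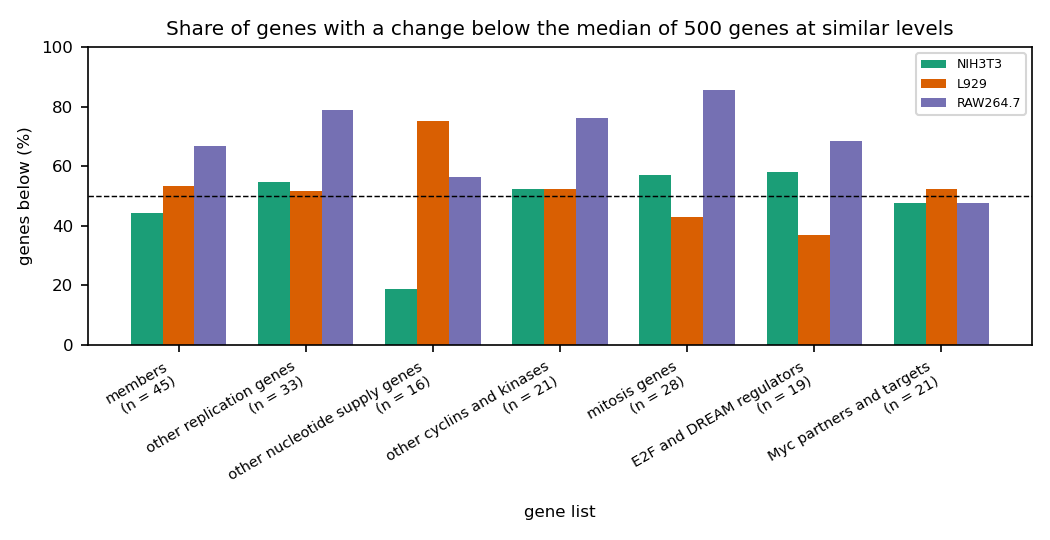
Share of genes whose log2 change with IFN-β lay below the median of the 500 genes nearest in level, for the members and 6 lists of related genes, in each cell line (bars, 1 pair of arrays each); the dashed line marks 50%. The RAW264.7 bars of the members, the other replication genes and the mitosis genes stand at 30 of 45, 26 of 33 and 24 of 28. Those of the other nucleotide supply genes and the Myc partners and targets stand at 9 of 16 and 10 of 21. Those of the other cyclins and kinases and the E2F and DREAM regulators stand at 16 of 21 and 13 of 19.

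Whether RAW264.7 changed differently from the fibroblast lines was tested with an interaction term in limma. It called 0 of the 45 members, where 0.236% of all genes and 0.364% at like levels were called, and 0 members had an unadjusted p under 0.05. The fit had 1 residual degree of freedom and an infinite prior, which gives every gene 1 common spread, and so the same standard error of 0.49. Ccnd1 had the largest difference, 0.80 ± 0.49 (SE), with a change of 0.48 in RAW264.7 against a fibroblast mean of -0.32. Its limma adjusted p was 0.99996. Mcm10 and Rfc3 followed with 0.44 and 0.38. Gins2, Gins3 and Rfc4 had the lowest, with -0.47, -0.46 and -0.38.

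Member changes in the fibroblast lines were negatively correlated. Over the 45 members the changes in NIH3T3 and L929 had a Pearson correlation of -0.50 and a Spearman correlation of -0.50, and -0.57 and -0.53 without Myc. These lines share no arrays, but the points share the 4 libraries, and genes are not independent. Over 6226 genes at like levels that the test did not call the values were -0.13 and -0.25. Subtracting the change of genes at similar levels left -0.51 and -0.56 for the members, and quantile normalization -0.46 and -0.47. Rfc4, Rfc5, Rfc3, Gins1 and Bub1 were low in NIH3T3 and high in L929, and Pold1, Pold2, Cdt1, Pole and Mcm5 the reverse. Opposite signs were found for 25 members (55.6%), against 52% of all genes and 56.3% at like levels.

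**Figure D4:**
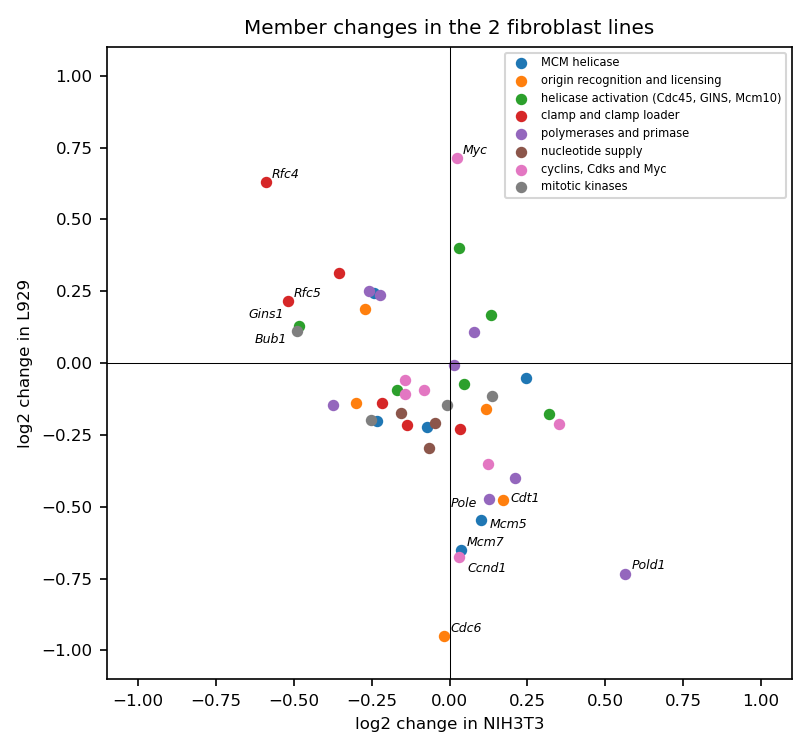
Log2 change with IFN-β in NIH3T3 (horizontal) against that in L929 (vertical) for the 45 members, coloured by role. Rfc4 (-0.59 and 0.63) and Pold1 (0.56 and -0.73) lie at opposite corners.

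Members with and without an E2F match are set side by side as a description. The 14 with a match had median changes of 0.07, -0.21 and -0.09 (NIH3T3, L929, RAW264.7), and the 19 without one -0.14, -0.15 and -0.09. Changes of the 14 ran from -0.95 for Cdc6 to 0.40 for Gins3 in L929. The promoter of Orc2, the only one with the interferon response core, belonged to a gene with differences of -0.27, 0.19 and -0.30.

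Levels were then compared between the cell lines, with a limma F-test over the 3 lines that used both arrays of a line and treatment as a term. The test takes its spread from what line and treatment leave over in 6 arrays (2 residual degrees of freedom), and it covers these cultures alone. It called 14 of the 45 members (31.1%), where 30.7% of all genes and 47.8% of genes at like levels were called. In RAW264.7 11 members were higher than in NIH3T3 and 1 was lower (12.8% and 12.5% of all genes, 23.9% and 15.1% at like levels). Against L929 5 were higher and 1 lower in RAW264.7 (10.8% and 8.86%, 18.6% and 11.8% at like levels). L929 was higher than NIH3T3 for 5 and lower for 1 (7.09% and 9%, 12.4% and 11.4% at like levels). RAW264.7 had the highest line mean for 27 members (60%), against 29.1% of all genes and 45.7% of genes at like levels. The count of 14 was 24 with each array centred on its median, 2 with all probe sets tested together (Myc and Gins1) and 5 without RAW264.7. Under these settings 35.0%, 18.7% and 15.2% of all genes were called, so the background moved as well. With all probe sets the pairwise differences of Ccnd1, Rfc4, Rrm2, Prim1, Pole and Pola2 given next had limma adjusted p-values of 0.0741, 0.0608, 0.0544, 0.0682, 0.0926 and 0.0827.

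Myc had the widest range of line means of the 45 members. Its mean level there was 4.30 ± 0.23 (SE) below that of NIH3T3 on the log2 scale (limma adjusted p = 3.42e-07) and 4.75 below that of L929. Both RAW264.7 arrays had Myc below the median gene, where no detection call is given, so these differences may be lower bounds. L929 and NIH3T3 did not pass (difference 0.45, adjusted p = 0.257). Mycn, the neural relative of Myc and a gene of the related lists, ran the other way. Its levels were 6.32 then 6.55 in NIH3T3, 5.03 then 5.21 in L929 and 9.57 then 9.18 in RAW264.7, which was higher than NIH3T3 by 2.94 ± 0.22 (limma adjusted p = 4.56e-06) and higher than L929 by 4.26. Mycn in L929 lay near the median gene, so the latter may be a lower bound too.

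Gins1 was ordered NIH3T3, L929 and RAW264.7 from low to high. L929 lay 1.08 above NIH3T3 (limma adjusted p = 0.00689) and RAW264.7 1.63 above it (adjusted p = 0.000275), while the step of 0.55 from L929 to RAW264.7 did not pass (adjusted p = 0.116). Gins3, Rfc4 and Bub1 were higher in RAW264.7 than in NIH3T3, by 1.12, 1.29 and 1.1, with L929 between and not past the threshold against either. Orc2, Prim2 and Pole were highest in RAW264.7, above L929 by 1.01, 0.74 and 0.84, and the fibroblast lines did not pass against each other. For Pole RAW264.7 did not pass against NIH3T3 (0.61, limma adjusted p = 0.0695). Ccnd1 was lowest in NIH3T3, by 1.31 against L929 (limma adjusted p = 0.00769) and 1.08 against RAW264.7 (adjusted p = 0.0134). Prim1 was lowest there too, by 0.85 and 0.72. Rrm2 was higher in L929 than in NIH3T3 by 0.89, with RAW264.7 between. Pola2 was lower in L929 than in RAW264.7 by 0.63 and than in NIH3T3 by 0.77, or by 0.61 and past the threshold no longer (adjusted p = 0.0554) with each array centred on its median.

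The remaining calls were Aurka, 0.75 higher in L929 than in NIH3T3, and Ccne2, 0.70 higher in RAW264.7 than in NIH3T3, the latter lost after quantile normalization. Of the 6 genes of the MCM ring and of the subunits Rfc1, Rfc2, Rfc3 and Rfc5, none was called. Without NIH3T3 the calls of Gins1, Ccnd1, Prim1, Rrm2 and Aurka were lost and without L929 those of Pola2, Pole, Rrm2 and Aurka. Ccna2, Orc1, Orc6 and Tyms were the most even, with line means within 0.16 of each other.

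**Figure D5:**
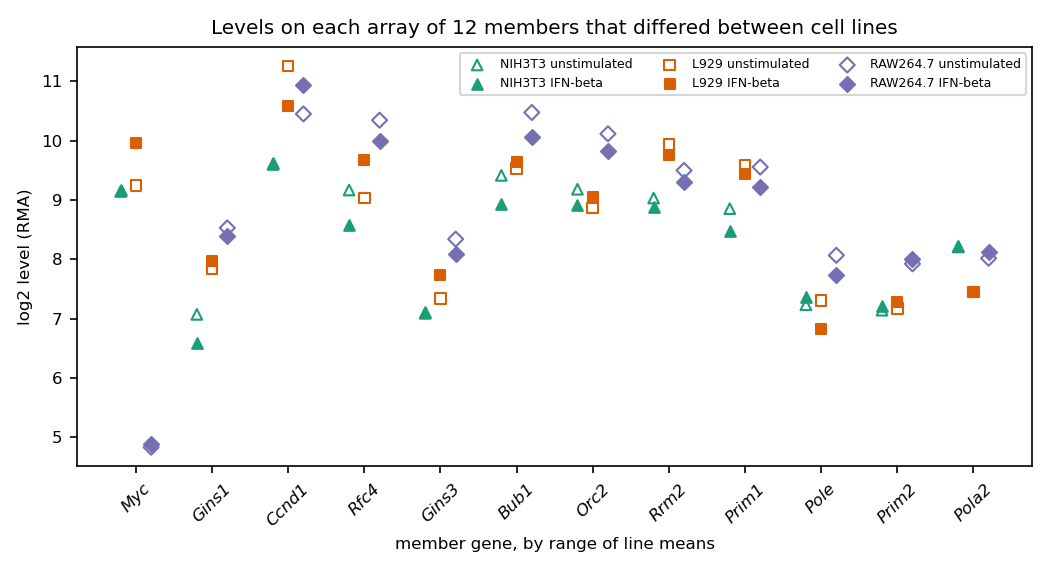
Log2 level (RMA) on each of the 6 arrays of the 12 called members with the widest range of line means; open symbols are unstimulated and filled symbols IFN-β arrays, 1 array each. Both RAW264.7 arrays lie at 4.83 and 4.88 for Myc, below the other 4, and above NIH3T3 for Gins1, Rfc4, Gins3 and Bub1.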

How the data were processed

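RNA of the 6 samples was labelled for whole-transcript Affymetrix arrays, as the labels' protocols say, with 1 array a sample. The authors deposited log2 values made with RMA, per the submitters' processing notes. The RMA version and settings and the build of the probe annotation are not stated there, and the log2 scale was inferred from the range of the values. Of 35557 probe sets 21789 name 1 gene, 1621 several and 12147 none. For each gene the single-gene probe set with the highest mean was kept, which left 19938 genes with no filter on level.

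The members and gene lists were chosen with earlier results of these data known. All members are described. Test values are named for the 6 largest mean changes each way across lines, the 3 largest interactions each way, the 12 called members with the widest range of levels, and in a line the 5 largest changes each way. Of other lists, called genes and the 2 largest mean changes each way are named. Aurka and Ccne2 in the level test, Mycn and Rbl1 fall outside this and were chosen after their values were seen.

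limma 3.58.1 in R 4.3.3 fitted line plus treatment to all genes (2 residual and 7.87 prior degrees of freedom), and p-values were adjusted by Benjamini-Hochberg at a threshold of 0.05. The 2 arrays of a cell line form a pair, and the line was the block. Genes at like levels are those within the members' range of mean levels. The alternatives were other scalings, filters, variance models, probe set rules and thresholds, and leaving out each line. The fits were tested on simulated data. The number of arrays limits the precision. Python 3.11.15 with numpy 2.4.6, pandas 2.3.3, scipy 1.17.1 and matplotlib 3.10.9 did the rest.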

Additional observations from a re-analysis of the deposited data

Results flagged for a closer look

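Rfc4, a clamp loader subunit, differed at least 1.5-fold with IFN-β in opposite directions in the fibroblast lines, with a log2 change of -0.59 in NIH3T3 and 0.63 in L929. The difference between these lines was not tested, nor was its cause.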

How the results depend on the processing

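The test across lines called 0 members under each of its alternatives (the mean over probe sets, median centring, quantile normalization, genes above the median level, empirical Bayes with a trend and robustly, all probe sets, an adjusted p under 0.1, no replicate block and each line left out), and so did the interaction under those run for it. The fit without the cell line as a block called 0 members. Level calls numbered 24 with median centring, 2 with all probe sets and 5 to 12 with a line left out. The shares of all genes called were 35.0%, 18.7% and 15.2% to 27.2%. Median centring lowered every NIH3T3 change by 0.27 and gave a member median of -0.32 there. At least 1.5-fold lower in NIH3T3 were then 6 members, and 2 after quantile normalization. At a log2 change of 0.32 in place of 1.5-fold 6 members were lower and 2 higher in NIH3T3. L929 then had 9 lower and 3 higher, and RAW264.7 6 lower and 3 higher. For these scalings and this size no share of all genes is given, so the counts cannot be set against one. At 2-fold and at 3-fold 0 members were lower or higher in NIH3T3, L929 or RAW264.7. Mean changes turned sign for Rfc3 without RAW264.7 (-0.021, and 0.335 without NIH3T3), for Cdk1 without NIH3T3 (-0.0198, and 0.263 without L929), and for Gins3 with median centring (-0.0173) and without L929 (-0.106, and 0.215 without RAW264.7). The causes were not tested. Counts below genes at similar levels stayed at 29 to 30 for RAW264.7, 23 to 25 for L929 and 20 to 23 for NIH3T3. Counts of the other replication, mitosis and cyclin lists in RAW264.7 after quantile normalization, an alternative chosen after seeing the data, were again 26, 24 and 16. The settings of the correlation between the fibroblast lines were also chosen after seeing the data.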

Other observations

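The measured genes that restrain the cycle were not called across the lines either. Cdkn1a, a listed CDK inhibitor, had no probe set that names it alone and was not analysed here. Of 7 measured CDK inhibitors 0 rose and 0 fell in limma (0 also at an unadjusted p under 0.05). In RAW264.7 all 7 were lower, with a median log2 change of -0.22 and 6 below genes at similar levels. Of all genes 55% were lower in RAW264.7 and 50% lay below genes at similar levels. Cdkn2c, an inhibitor of Cdk4 and Cdk6, had unstimulated then stimulated levels of 9.31 then 9.15 in NIH3T3, 8.51 then 8.32 in L929 and 7.55 then 7.28 in RAW264.7, which was lower than NIH3T3 by 1.81 (limma adjusted p = 5.8e-05). Cdkn1b, which encodes p27, was lower than in NIH3T3 by 1.08 in L929 and 1.1 in RAW264.7. Of 19 E2F and DREAM regulators 0 were called, and at an unadjusted p under 0.05 1 was higher and 2 lower. Over all genes 5.48% had an unadjusted p under 0.05 in either direction. E2f8, a repressor of the E2F family, was lower in each line, by 0.63, 0.60 and 0.25, and Lin9 higher in each, by 0.34, 0.83 and 0.23 (NIH3T3, L929, RAW264.7). Lin37 had a mean change of -0.46 and E2f6 one of 0.25, with E2f6 below the median gene in unstimulated NIH3T3. The inhibitor genes Cdkn1c and Cdkn2b had mean changes of 0.02 and 0.00078. The Rb relative Rbl1 was higher in L929 and RAW264.7 than in NIH3T3, by 1.14 and 1.23.

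Ccnd2 had levels of 10.80 then 11.02 in NIH3T3, 10.42 then 10.03 in L929 and 6.96 then 8.24 in RAW264.7. It was lower in RAW264.7 than in NIH3T3 by 3.31 (limma adjusted p = 3.4e-05), and on the pair of RAW264.7 arrays it was higher with IFN-β by 1.28. Max, the partner of Myc, was higher there by 0.76 and Dck by 1.22. None passed across the lines, but that test asks for a common change and does not address a change in RAW264.7 alone. Interaction values of these genes are not given here. Of 21 Myc partners and targets 0 were called, and of 15 p53 targets 0. At an unadjusted p under 0.05 1 p53 target was lower, Sesn1, by 0.57 in the mean (5.48% of all genes in either direction). Phlda3 had a mean of -0.41, Gadd45b one of 0.42 and Bbc3 one of 0.30, while among the Myc list Mxd3 had -0.38, Nop58 -0.29 and Mycl 0.17.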
